A study of Homo sapiens with 9 samples.

Results

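The genes of sterol and fatty acid synthesis that answer to the SREBP transcription factors were examined in HEK293T cells, a line from human embryonic kidney, in which the level of BRD1, a scaffold of histone acetyltransferase complexes, had been raised or lowered. The set was given as a list of 33 gene symbols, and a gene's value was the mean log2 intensity of the probe sets that carry its symbol alone. Of the 33 genes, 32 were measured, by 83 of the 45259 probe sets with a single symbol, out of 18239 genes in all; FDFT1 had no probe set to use and was not analysed here. They fall into 4 regulators, 18 sterol enzymes, 8 fatty acid enzymes and 2 sterol carriers, STARD4 and APOE. RNA was read on Affymetrix U219 arrays, 9 in all.

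All arrays came from the same HEK293T background. One array held untreated cells, and 1 each held cells with stable or episomal expression of epitope tagged BRD1-S or BRD1-L, the short and the long isoform; neither the promoter of the transgene nor the clonal state of a line was given in the sources used here. Of the other 6 arrays, 3 held cells transfected with a pool of siRNA against BRD1 and 3 held control siRNA, in 1 pair with the Qiagen kit and 2 with the Dharmacon kit, harvested the day after transfection. They are named here the Qiagen, Dharmacon 1 and Dharmacon 2 pairs. The labels call the controls mock, whereas the paper describes scrambled siRNA.

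Cells make cholesterol from acetyl-CoA along the mevalonate pathway, and fatty acids from the same acetyl-CoA by way of malonyl-CoA. The SREBP proteins are held in the endoplasmic reticulum by SCAP and INSIG when sterols are plentiful; when sterols fall, SCAP carries them to the Golgi, where proteases release the part that enters the nucleus. There SREBP-2, from SREBF2, mainly drives sterol genes and SREBP-1, from SREBF1, mainly drives fatty acid genes, together with NF-Y and Sp1 bound nearby. INSIG1 is itself an SREBP target, so its RNA is often read as a gauge of the pathway.

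The promoter sequences below show the elements through which such genes are known to be read, for INSIG1, LSS and ELOVL6, which were lower in BRD1-L cells and have 1 window each, for TM7SF2, which was higher there, and for SREBF2, the regulator whose window alone held the sterol regulatory element. Each runs 5′ to 3′ over 300 bases, from 250 bases before the start of the gene to 50 after it, in RefSeq's windows for build GRCh38.p14. Capitals mark any of 4 motifs, read on either strand, so that a motif on the opposite strand appears as its reverse complement. They are the sterol regulatory element TCACNCCAC, the E-box CACGTG, the box CCAAT of NF-Y and the GC box GGGCGG of Sp1. Neighbouring GC boxes can overlap. The windows lie at chr7:155297628-155297927 on the plus strand (INSIG1), chr21:46228725-46229024 on the minus strand (LSS), chr4:110198566-110198865 on the minus strand (ELOVL6), chr11:65111622-65111921 on the plus strand (TM7SF2) and chr22:41832855-41833154 on the plus strand (SREBF2).
INSIG1: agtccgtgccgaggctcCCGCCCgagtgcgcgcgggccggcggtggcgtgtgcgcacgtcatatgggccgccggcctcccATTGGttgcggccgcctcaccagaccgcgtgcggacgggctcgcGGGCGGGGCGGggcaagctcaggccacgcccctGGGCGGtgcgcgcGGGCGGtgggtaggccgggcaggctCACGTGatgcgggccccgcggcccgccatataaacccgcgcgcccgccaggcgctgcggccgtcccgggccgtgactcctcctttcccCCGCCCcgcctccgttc
LSS: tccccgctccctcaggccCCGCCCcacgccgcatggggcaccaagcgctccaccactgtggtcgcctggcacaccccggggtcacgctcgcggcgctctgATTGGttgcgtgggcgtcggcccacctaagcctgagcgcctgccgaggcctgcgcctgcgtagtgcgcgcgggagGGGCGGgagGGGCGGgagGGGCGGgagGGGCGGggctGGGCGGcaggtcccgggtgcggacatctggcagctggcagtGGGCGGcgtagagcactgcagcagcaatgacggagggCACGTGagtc
ELOVL6: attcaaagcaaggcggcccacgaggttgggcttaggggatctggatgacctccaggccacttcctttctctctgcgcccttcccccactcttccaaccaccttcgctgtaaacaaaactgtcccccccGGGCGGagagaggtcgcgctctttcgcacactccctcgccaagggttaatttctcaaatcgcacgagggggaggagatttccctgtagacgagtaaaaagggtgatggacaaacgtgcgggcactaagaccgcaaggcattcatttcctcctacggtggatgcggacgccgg
TM7SF2: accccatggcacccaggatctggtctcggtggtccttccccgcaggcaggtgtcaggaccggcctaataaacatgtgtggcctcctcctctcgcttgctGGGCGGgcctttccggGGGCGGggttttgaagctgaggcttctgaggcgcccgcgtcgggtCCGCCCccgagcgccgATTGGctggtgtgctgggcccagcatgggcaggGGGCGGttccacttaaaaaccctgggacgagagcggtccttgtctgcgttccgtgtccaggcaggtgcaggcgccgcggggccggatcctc
SREBF2: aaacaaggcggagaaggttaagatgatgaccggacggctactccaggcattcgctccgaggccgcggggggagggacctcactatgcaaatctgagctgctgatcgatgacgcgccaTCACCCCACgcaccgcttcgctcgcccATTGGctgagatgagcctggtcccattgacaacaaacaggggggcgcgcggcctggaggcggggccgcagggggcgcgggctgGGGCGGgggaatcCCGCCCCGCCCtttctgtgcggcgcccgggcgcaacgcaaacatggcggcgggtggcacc

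The window of SREBF2 held the sterol regulatory element at positions 118 to 126, counted from its 5′ end, followed by an NF-Y box. INSIG1 and LSS each held 1 E-box and 1 NF-Y box, with 6 and 7 GC boxes. TM7SF2 held 1 NF-Y box and 4 GC boxes, and ELOVL6 held 1 GC box alone. Windows were found for 29 of the 33 genes, 41 windows in all since some genes have several; ACAT2, FDFT1, SQLE and FASN had none. The NF-Y box was in 27 of the 41 windows (65.9%), against 34.6% of all 35116 windows, and the GC box in 34 of 41 (82.9%), against 45.0%. The E-box was in 5 of 41 (12.2%), against 7.26%, and the sterol regulatory element in 1 of 41 (2.44%), against 1.13%. These shares are a description. The letters TCACNCCAC are 1 form of an element that varies, and a window without them says nothing about SREBP.

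BRD1, read first as a check of the labels, was at 7.61 (log2 intensity) in untreated cells and 9.27 and 9.30 in the BRD1-S and BRD1-L lines. It read 7.82, 7.79 and 7.75 on the Qiagen, Dharmacon 1 and Dharmacon 2 controls and 7.07, 6.94 and 6.75 on the matching BRD1 siRNA arrays. BRD1 was thus raised or lowered as the labels say, but its level cannot tell the 2 lines, the kits or the replicates apart. All 5 listed markers of HEK293 cells had a mean level above 5.47, the median of all values. PAX2 did so narrowly, with a mean of 5.48, and read 5.45, 5.44 and 5.00 in untreated, BRD1-S and BRD1-L cells. NEFL and NEFM were lower in BRD1-L than in untreated cells by 3.35 and 3.75. None of 8 measured markers of other cell types had a mean level above that median. Their summed level lay between 29.7 and 30.4 over the arrays. The 4 arrays of the Qiagen and Dharmacon 1 pairs stood apart from the other 5: between 4.21 and 13.7% of probe sets differed past 1.5-fold across that divide, against 0.524 to 9.74% within the 4 and 1.40 to 6.82% within the 5. This divide was noticed in the data, follows no label, and crosses the Dharmacon kit. The Dharmacon 2 control therefore lies with the untreated array and not with the other 2 controls, and values that turn on it are given below.

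With 1 array per condition, no test exists for BRD1-S, BRD1-L or a single pair. There a gene is called higher or lower when it passes 1.5-fold, the threshold of the study's methods, which is 0.585 on the log2 scale. In whole cultures, fewer cells that make an RNA and less RNA per cell cannot be told apart.

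In BRD1-L cells the SREBP brake INSIG1, sterol enzymes HMGCS1 and LSS and fatty acid enzymes FASN and ELOVL6 were lower than in untreated cells. The sterol reductase TM7SF2 and the apolipoprotein APOE were higher. Of the 32 measured genes 5 were lower past 1.5-fold, against 1.69% of all genes: INSIG1 (1.92-fold), FASN (1.75-fold), ELOVL6 (1.58-fold), HMGCS1 (1.57-fold) and LSS (1.55-fold). Higher past 1.5-fold were 2 of 32, against 3.13% of all genes: APOE (4.34-fold) and TM7SF2 (1.88-fold). The median over the 18 sterol enzymes was -0.12 on the log2 scale, with 11 below 0, and over the 8 fatty acid enzymes -0.23, with 6 below 0, where the median of all genes was 0. In BRD1-S cells 1 of 32 was higher, APOE (2.96-fold), against 0.970% of all genes, and 0 of 32 were lower, against 0.164%. Both comparisons share the untreated array.

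**Figure D1:**
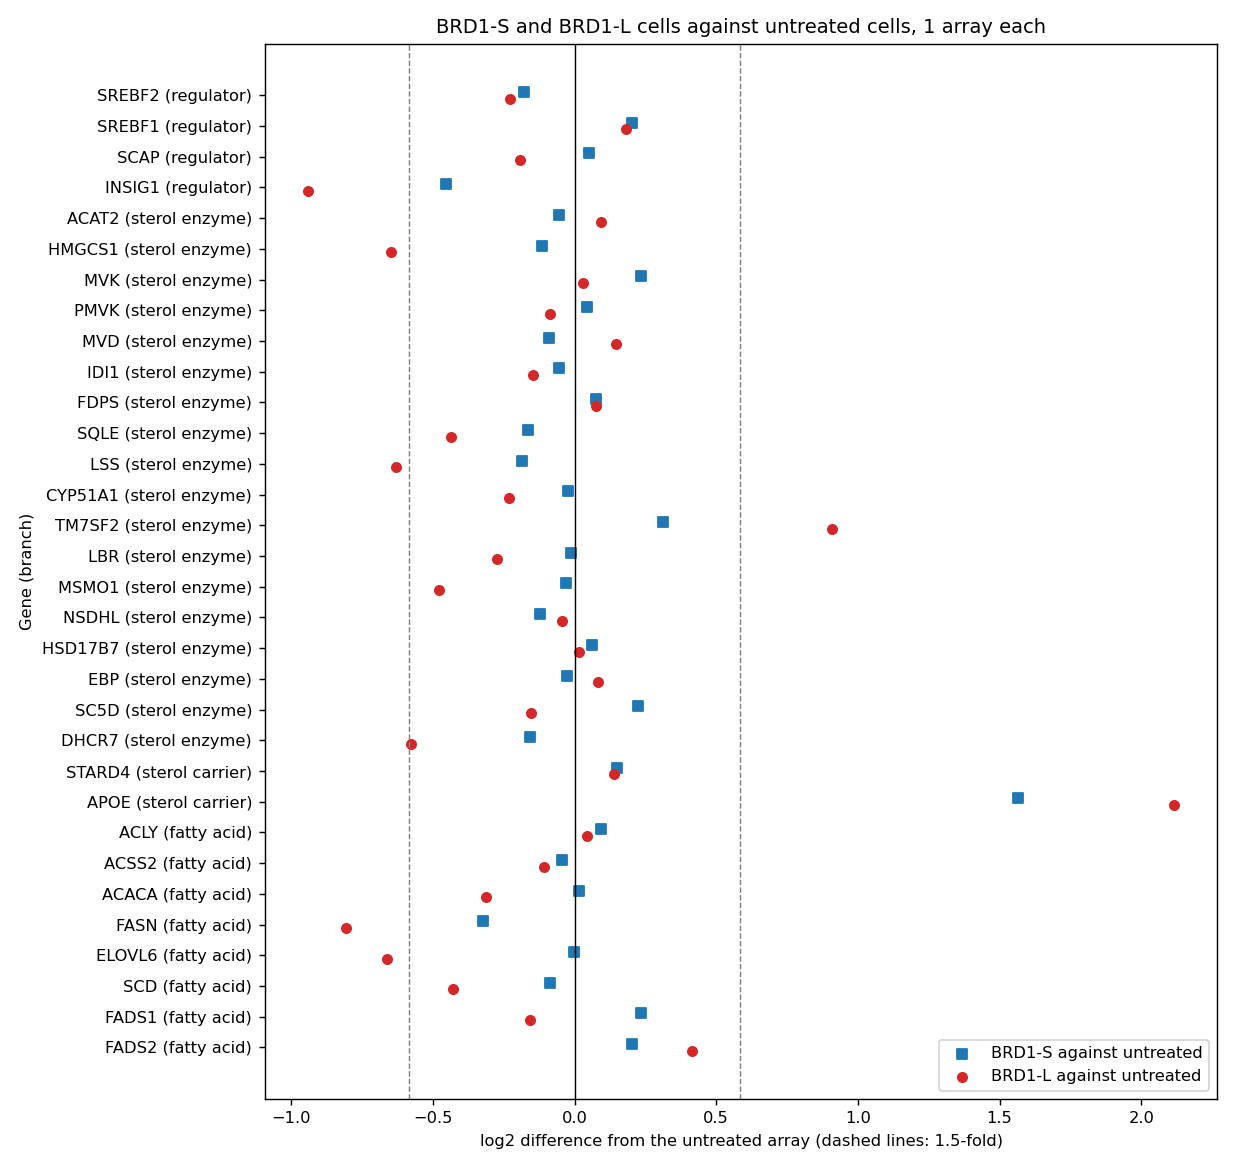
Log2 difference from the untreated array (horizontal axis) for each of the 32 genes (vertical axis, with its branch), in BRD1-S cells (blue squares) and BRD1-L cells (red circles), 1 array each; dashed lines mark 1.5-fold. INSIG1 at -0.94 and FASN at -0.80 lie farthest left in BRD1-L cells, and APOE lies farthest right in both lines, at 2.12 with BRD1-L and 1.56 with BRD1-S.

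The regulators differed among themselves. INSIG1, which tethers SCAP in the endoplasmic reticulum, read 9.80 in untreated, 9.35 with BRD1-S and 8.86 with BRD1-L, 10.25, 10.28 and 9.57 on the Qiagen, Dharmacon 1 and Dharmacon 2 controls, and 10.41, 10.59 and 9.86 with BRD1 siRNA in the same order. BRD1-L was the lowest of the 9 arrays and BRD1-S the next, while all 4 arrays of the Qiagen and Dharmacon 1 pairs lay above the other 5. All 3 probe sets of INSIG1 were lower in BRD1-L than in untreated cells past 1.5-fold, between -1.07 and -0.81. The difference of BRD1-L from BRD1-S, -0.49, was inside the threshold.

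SREBF2, the gene of SREBP-2, read 6.98 in untreated, 6.80 with BRD1-S and 6.75 with BRD1-L, 6.88, 6.97 and 6.94 on the 3 controls, and 7.31, 7.31 and 6.79 with BRD1 siRNA. Its highest levels were thus on the siRNA arrays of the Qiagen and Dharmacon 1 pairs, and its difference was 0.43 and 0.34 there against -0.15 in the Dharmacon 2 pair. SCAP, the escort and sterol sensor, read 9.23, 9.28 and 9.04 in untreated, BRD1-S and BRD1-L cells, 9.36, 9.30 and 9.16 on the controls, and 9.77, 9.54 and 9.21 with BRD1 siRNA. BRD1-L was again lowest and the Qiagen siRNA array highest. SREBF1, the gene of SREBP-1, read 5.35, 5.55 and 5.53 in untreated, BRD1-S and BRD1-L cells, 5.74, 5.77 and 5.47 on the controls, and 5.92, 5.70 and 5.40 with BRD1 siRNA. Unlike the other 3 regulators it was not lowest in BRD1-L cells; 1 of its 3 probe sets lay under the median of all values throughout, which limits what its mean can show.

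Among the sterol enzymes, HMGCS1, which condenses acetyl-CoA with acetoacetyl-CoA ahead of mevalonate, read 9.10 in untreated, 8.98 with BRD1-S and 8.45 with BRD1-L, 8.84, 8.76 and 8.59 on the controls and 8.93, 8.93 and 8.54 with BRD1 siRNA. Untreated cells were the highest of the 9 arrays and BRD1-L the lowest, with both Dharmacon 2 arrays close above BRD1-L. The untreated array lay 0.26 above the median of the 7 arrays outside this comparison and BRD1-L 0.39 below it, so both carried the difference of -0.65; it was -0.14 against the Dharmacon 2 control. LSS, which closes squalene epoxide into lanosterol, read 6.72, 6.54 and 6.09 in untreated, BRD1-S and BRD1-L cells, 6.69, 6.63 and 6.57 on the controls and 7.11, 6.85 and 6.61 with BRD1 siRNA. Here BRD1-L stood 0.45 below the next lowest array, BRD1-S. Of its 3 probe sets, 2 were lower past 1.5-fold, by up to 0.92; the third, under the median of all values, was lower by 0.31.

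DHCR7, the last reductase on the way to cholesterol, read 9.70, 9.54 and 9.13 in untreated, BRD1-S and BRD1-L cells, 9.66, 9.76 and 9.74 on the controls and 10.31, 10.00 and 9.86 with BRD1 siRNA. All 3 siRNA arrays were thus higher than all 3 controls and BRD1-L lowest, at -0.58 against untreated cells, just inside the threshold. The Qiagen siRNA array carried the only call, 1.57-fold above its control, and the gene rests on 1 probe set. MSMO1, a sterol demethylation enzyme, at -0.48, and SQLE, which oxidises squalene, at -0.44, were also lowest on the BRD1-L array of all 9. SQLE read 9.68 there, against 10.12 in untreated cells but 9.79, 9.85 and 9.81 on the controls.

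TM7SF2, a sterol reductase whose step LBR can also carry out, went the other way. It read 7.19, 7.50 and 8.10 in untreated, BRD1-S and BRD1-L cells, 6.85, 6.83 and 7.82 on the controls and 7.54, 7.46 and 7.61 with BRD1 siRNA. BRD1-L was highest and the Qiagen and Dharmacon 1 controls lowest, while the 3 siRNA arrays lay between 7.46 and 7.61. All 5 probe sets were higher in BRD1-L than in untreated cells past 1.5-fold, between 0.82 and 1.00. Of these 5, 4 are of a type that can bind related sequences, and only 4 had a mean level above the median of all values. Against the Dharmacon 2 control the difference was 0.29. LBR itself was 0.27 below untreated cells in BRD1-L cells.

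None of the 12 other sterol enzymes measured passed 1.5-fold between the lines and untreated cells, between the 2 lines, or in any of the 3 siRNA pairs. They are ACAT2, MVK, PMVK, MVD, IDI1 and FDPS, which lead from acetyl-CoA to farnesyl diphosphate, and CYP51A1, LBR, NSDHL, HSD17B7, EBP and SC5D, which trim lanosterol toward cholesterol. They ranged by 0.27 (FDPS) to 0.66 (HSD17B7) over the 9 arrays, and in BRD1-L cells they differed from untreated cells by -0.27 to 0.15. HSD17B7 rests on 1 probe set whose probes can also bind related sequences, and was at 6.94 to 7.04 on the 4 arrays of the Qiagen and Dharmacon 1 pairs against 7.39 to 7.60 on the other 5.

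In the fatty acid branch, FASN, the synthase of palmitate, read 8.73 in untreated, 8.40 with BRD1-S and 7.92 with BRD1-L, 8.75, 8.68 and 8.72 on the controls and 9.25, 9.03 and 8.59 with BRD1 siRNA. The untreated array and the 3 controls lay between 8.68 and 8.75, with BRD1-L lowest and the Qiagen siRNA array highest of the 9. FASN rests on 1 probe set. ELOVL6, which lengthens palmitate to stearate, read 8.09, 8.08 and 7.43 in untreated, BRD1-S and BRD1-L cells, 7.91, 8.03 and 8.13 on the controls and 7.73, 7.89 and 8.10 with BRD1 siRNA. BRD1-L alone took its range past 1.5-fold. With FASN, INSIG1 and APOE it was among the calls that held against the untreated array, the mean of the 3 controls (-0.60) and the Dharmacon 2 control (-0.71).

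SCD, the stearoyl-CoA desaturase, was at -0.43 in BRD1-L cells and lowest there of the 9 arrays, and ACACA, which makes malonyl-CoA, was at -0.31 and likewise lowest. ACLY and ACSS2, which supply acetyl-CoA, were at 0.04 and -0.11. The desaturases of long polyunsaturated chains were at -0.16 (FADS1) and 0.41 (FADS2), and FADS2 was highest in BRD1-L cells.

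**Figure D2:**
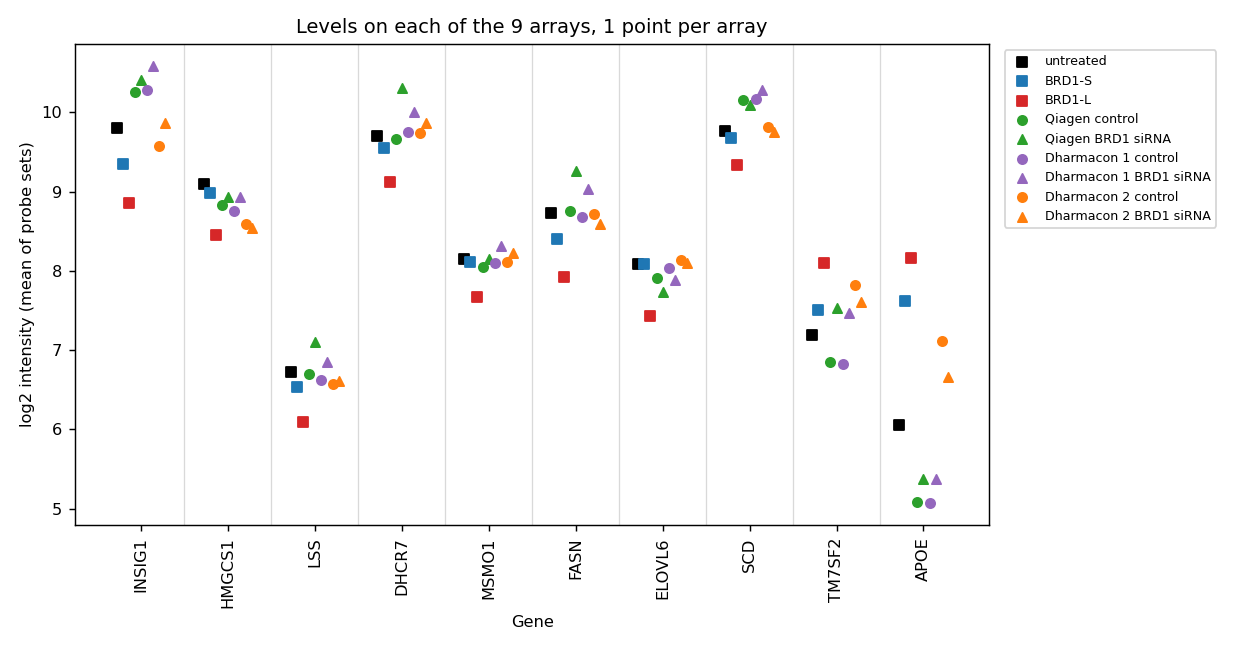
Log2 intensity (vertical axis, mean of a gene's probe sets) of 10 genes on each of the 9 arrays, 1 point per array; squares are untreated, BRD1-S and BRD1-L cells, circles control siRNA and triangles BRD1 siRNA, coloured by pair. The red squares of BRD1-L lie below all other points from INSIG1 to SCD and above them for TM7SF2 and APOE.

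APOE, the apolipoprotein that carries cholesterol out of cells and is known as a target of the LXR receptors, spread the most. It read 6.05 in untreated, 7.62 with BRD1-S and 8.17 with BRD1-L, 5.08, 5.07 and 7.12 on the Qiagen, Dharmacon 1 and Dharmacon 2 controls and 5.37, 5.37 and 6.66 with BRD1 siRNA. The 4 arrays of the Qiagen and Dharmacon 1 pairs were all below the other 5, and lay under the median of all values, so that folds against them are approximate. The controls alone differed by 2.05, nearly as much as BRD1-L from untreated cells (2.12) and more than BRD1-S (1.56). Against the Dharmacon 2 control BRD1-S was at 0.50, inside the threshold, and BRD1-L at 1.05, past it. APOE rests on 1 probe set, of a type that can bind related sequences. STARD4, a soluble sterol carrier, was dim, at 4.44 to 4.85.

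Set directly against BRD1-S, BRD1-L cells had ELOVL6 lower by 0.66, 1 of 32 genes against 1.36% of all genes, and TM7SF2 higher by 0.60, 1 of 32 against 1.53%. Most of the genes lay on the lower side: 25 of 32 were below 0, including all 4 regulators, 13 of 18 sterol enzymes and 7 of 8 fatty acid enzymes, where 49.4% of all genes were above 0. The medians were -0.17 for the sterol and -0.33 for the fatty acid enzymes. For BRD1-S against untreated cells they were -0.03 and 0.01. With each array centred on its median the latter was -0.04, as was the median of all genes.

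Counted over all 9 arrays, BRD1-L held the lowest level of 14 of the 32 genes, against 16.4% of all genes, and the highest of 5 of 32, against 17.4%. The 14 were SREBF2, SCAP and INSIG1 among the regulators; HMGCS1, SQLE, LSS, CYP51A1, LBR, MSMO1 and DHCR7 among the sterol enzymes; and ACACA, FASN, ELOVL6 and SCD among the fatty acid enzymes. The 5 were ACAT2, TM7SF2, EBP, APOE and FADS2. For 15 of 32 genes the range over the arrays passed 1.5-fold, against 25.8% of all genes, and in 9 of these 15 BRD1-L was the array farthest from the median of the others, as in 32.2% of all genes with such a range. For 6 of the 15 a single array decided it, against 52.2% of all such genes: BRD1-L for HMGCS1, LSS, MSMO1 and ELOVL6, the Qiagen siRNA array for SCAP and the Dharmacon 1 control for FADS1. BRD1-L is 1 array, and what belongs to the isoform and what to that culture or hybridisation cannot be told apart.

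**Figure D3:**
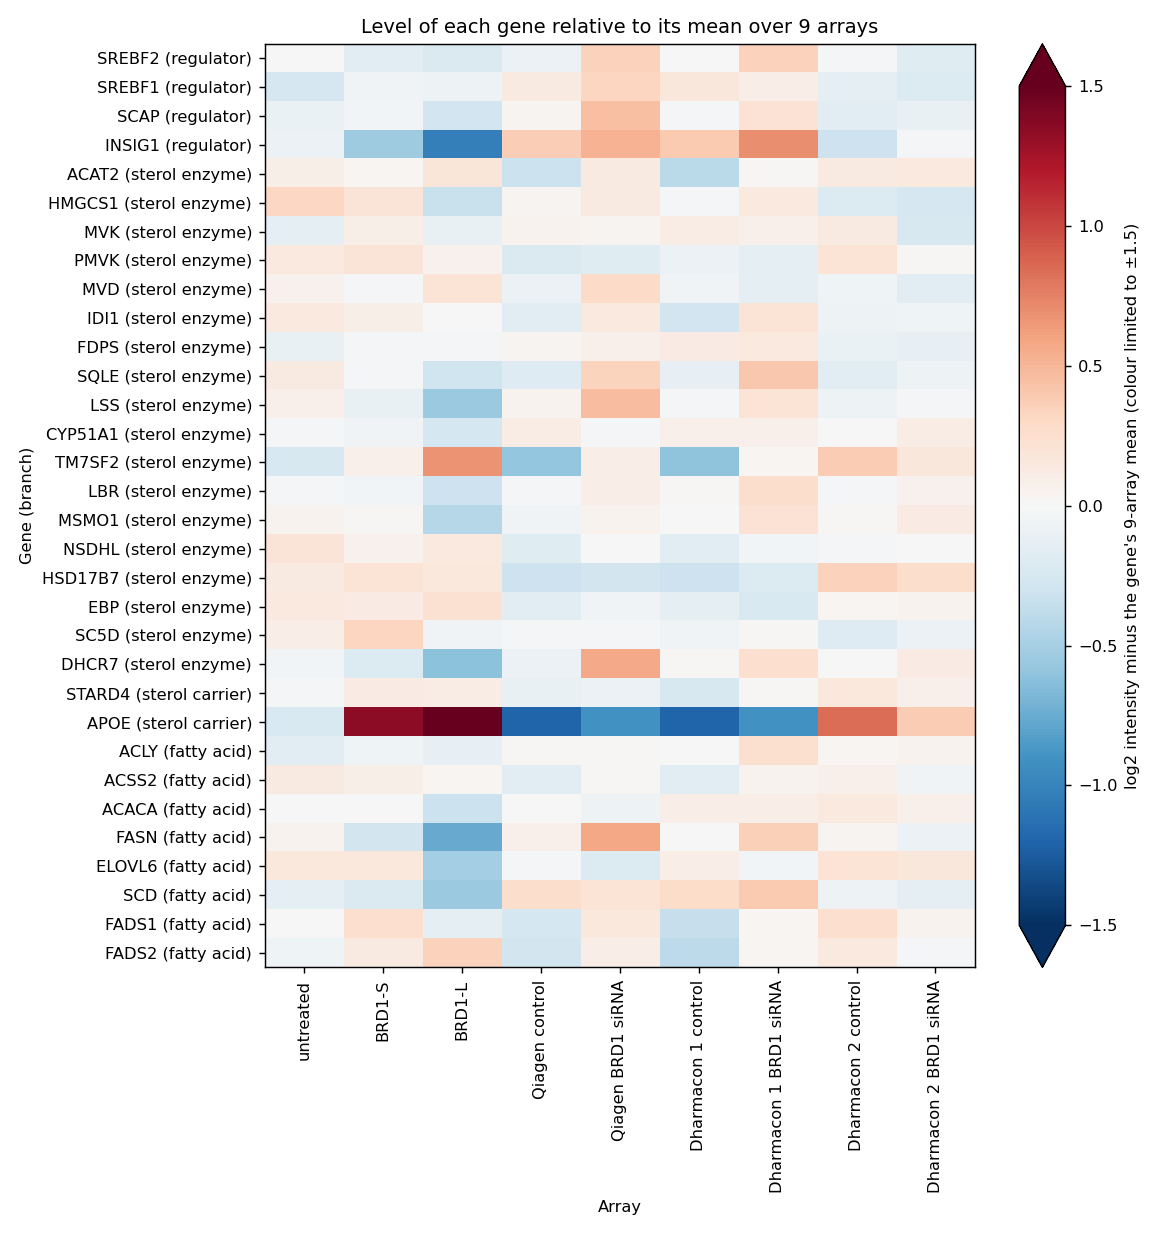
Log2 intensity of each of the 32 genes (rows, with their branch) minus its mean over the 9 arrays (columns), from blue, below the mean, to red, above it, with the colour limited to 1.5 either way. The BRD1-L column is blue for INSIG1, FASN, DHCR7, LSS, SCD and ELOVL6 and red for TM7SF2 and APOE, and the APOE row is blue on the 4 arrays of the Qiagen and Dharmacon 1 pairs.

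With BRD1 siRNA most of the genes were on the higher side in the Qiagen and Dharmacon 1 pairs and not in the Dharmacon 2 pair. In the Qiagen pair 27 of 32 differences were above 0, where 50.3% of all genes were, in the Dharmacon 1 pair 24 of 32 against 52.0%, and in the Dharmacon 2 pair 14 of 32 against 39.4%. Few were large. The Qiagen pair had 2 of 32 higher past 1.5-fold against 2.17% of all genes, TM7SF2 (1.61-fold) and DHCR7 (1.57-fold), and 0 of 32 lower against 1.35%. The Dharmacon 1 pair had 1 of 32 higher against 2.39%, TM7SF2 (1.55-fold), and 0 lower against 0.976%. The Dharmacon 2 pair had 0 higher against 0.274% and 0 lower against 0.329%.

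Which array of a pair carried a call differed by gene. For TM7SF2 the Qiagen and Dharmacon 1 siRNA arrays lay at 0.03 and -0.08 from the median of the 7 arrays outside the pair. Their controls lay at -0.66 and -0.71, farther from that median in both calls. The median rests mostly on the other 5 arrays, across the divide, and what part the divide plays was not tested. For DHCR7 the Qiagen siRNA array lay at 0.57 from that median and its control at -0.08, so the siRNA array carried it. The Qiagen and Dharmacon 1 controls were the lowest of the 9 arrays for 10 of 32 genes, against 8.83% of all genes: ACAT2, IDI1, TM7SF2, NSDHL, HSD17B7, STARD4, APOE, ACSS2, FADS1 and FADS2. Any difference of these 10 in those pairs starts from a low control. For HSD17B7 and APOE the siRNA arrays of the 2 pairs also lay below the other 5, so the controls are not singled out. All 4 arrays of the 2 pairs lay above the other 5 for SREBF1, SCAP, INSIG1, FDPS and SCD, 5 of 32 against 7.13% of all genes, and below them for PMVK, HSD17B7, EBP and APOE, 4 of 32 against 5.90%; this count followed the divide seen in the data and carries no test.

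By branch, the median of the 18 sterol enzymes was 0.11 in the Qiagen, 0.15 in the Dharmacon 1 and 0.02 in the Dharmacon 2 pair, and that of the 8 fatty acid enzymes 0.10, 0.23 and -0.10, where the median of all genes was 0.00, 0.01 and -0.03. The differences of SQLE were 0.53, 0.53 and 0.09, and of IDI1, which isomerises the C5 building block, 0.32, 0.49 and 0.02. Those of FASN were 0.50, 0.35 and -0.14, of FADS1 0.42, 0.37 and -0.21, and of FADS2 0.38, 0.42 and -0.16. In the Dharmacon 2 pair 7 of 8 fatty acid enzymes were below 0 and 11 of 18 sterol enzymes above it. The difference was above 0 in all 3 pairs for 12 of 32, against 11.0% of all genes, and below 0 in all 3 for 3 of 32, MVK, ACACA and ELOVL6, against 16.2%. For 11 of 32, against 23.9%, it was above 0 in the Qiagen and Dharmacon 1 pairs and below 0 in the Dharmacon 2 pair.

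**Figure D4:**
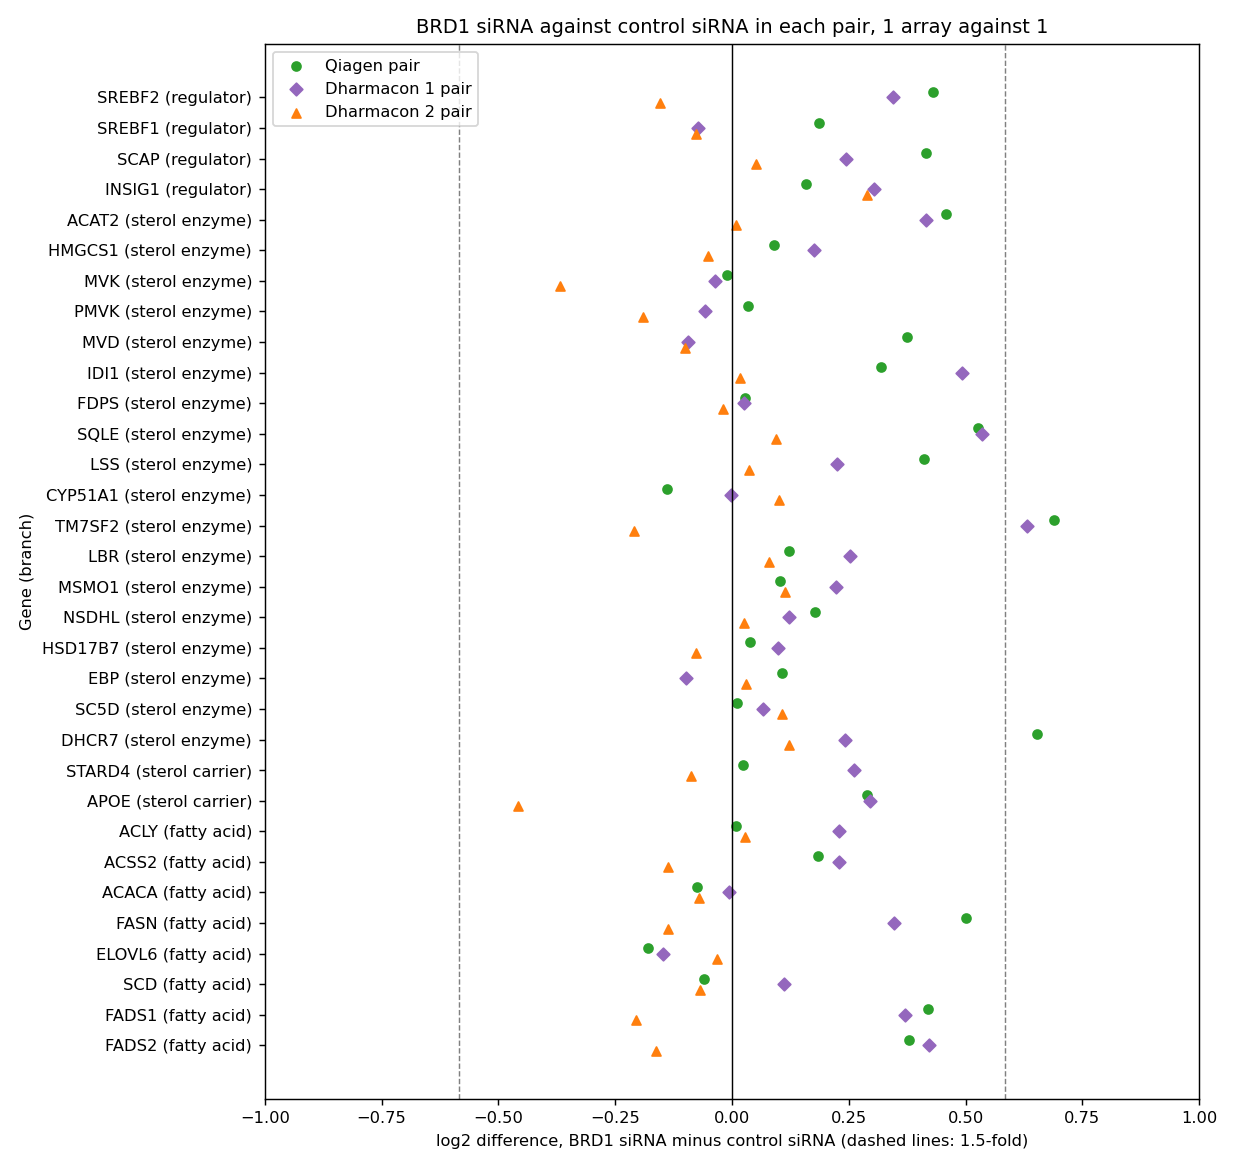
Log2 difference of BRD1 siRNA from control siRNA (horizontal axis) in the Qiagen (green circles), Dharmacon 1 (purple diamonds) and Dharmacon 2 (orange triangles) pair for each of the 32 genes (vertical axis, with its branch), 1 array against 1; dashed lines mark 1.5-fold. Green and purple points lie mostly right of 0, up to 0.69 for TM7SF2, and the orange points lie between -0.46 and 0.29.

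Over the 3 pairs, fitted with limma with the kit as covariate, none of the 32 genes passed an adjusted p of 0.05, and neither did any of the 18239 genes; 894 of them, or 4.90%, had an unadjusted p under 0.05. The pairs are described as separate knockdown experiments. The smallest unadjusted p among the 32 belonged to DHCR7 (0.34, SE 0.12), SQLE (0.39, SE 0.14) and IDI1 (0.28, SE 0.10), each above 0 in 3 of 3 pairs, with a limma adjusted p of 0.869 for all 3. BRD1 itself, at -0.86, had the same adjusted p, so this fit could not call even the targeted gene. Without the Dharmacon 2 control the fit called 33 genes, none of the 32 among them; TM7SF2, at 0.70, then had a limma adjusted p of 0.0707. In a limma interaction of siRNA and kit, the effect of BRD1 siRNA was 0.47 more in the Qiagen kit for MVD and for DHCR7, 2 genes picked by unadjusted p. The Qiagen kit held 1 siRNA and 1 control array, so the spread came from the Dharmacon arrays alone. The Dharmacon 1 and Dharmacon 2 pairs lie on opposite sides of the divide. This fit therefore cannot decide whether the effect differed between the kits.

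The control arrays give the background against which these differences stand. Between the Qiagen and Dharmacon 1 controls 0 of the 32 genes passed 1.5-fold, against 0.0768% of all genes higher and 0.0493% lower, and the differences ran from -0.13 to 0.14. Against the Dharmacon 2 control, the Qiagen control had INSIG1 higher by 0.68, 1 of 32 against 1.04% of all genes, and TM7SF2, HSD17B7 and APOE lower, 3 of 32 against 3.30%. The Dharmacon 1 control had INSIG1 higher by 0.71, 1 of 32 against 1.43%, and the same 3 genes and FADS1 lower, 4 of 32 against 3.21%. These are as large as most calls made with BRD1-L or BRD1 siRNA. For FASN, LSS, DHCR7, SQLE and MSMO1, by contrast, the 3 controls agree closely, with an SD of 0.03 to 0.06 (n = 3). The SQLE controls nonetheless differed from the untreated array by -0.33, -0.27 and -0.31.

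Other genes of the same metabolism, from lists drawn up around the pathway, were counted in the same way, beside 3.13% of all genes higher and 1.69% lower in BRD1-L cells. None of 11 measured genes of SREBP processing and none of 12 other sterol-regulated and isoprenoid genes passed 1.5-fold in either line. Of 14 genes of cholesterol uptake, storage and export, 1 was higher in BRD1-L cells: ABCG1, an exporter that like APOE is known as an LXR target, which read 4.62 in untreated, 5.08 with BRD1-S and 5.67 with BRD1-L, 4.93, 4.97 and 5.60 on the controls and 5.04, 4.88 and 5.38 with BRD1 siRNA. It was dim, and the Dharmacon 2 arrays were closest to BRD1-L. Of 21 further genes of elongation, activation and lipogenesis, ELOVL1, an elongase of very long chains, was higher in BRD1-L cells by 0.63, and GPAM, which begins glycerolipid synthesis, was lower by 0.76.

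GPAM read 8.05, 7.94 and 7.29 in untreated, BRD1-S and BRD1-L cells, 8.09, 8.17 and 7.66 on the controls and 7.26, 7.24 and 7.57 with BRD1 siRNA. It was thus lower with BRD1 siRNA by 0.83 and 0.93 in the Qiagen and Dharmacon 1 pairs, where FASN was higher, and by 0.09 in the Dharmacon 2 pair. In the Qiagen pair ERLIN1, which helps degrade sterol-sensing proteins, NR1H3, the gene of LXR-alpha, and LIPA, the lysosomal lipase, were lower by 0.72, 0.80 and 0.66, and VLDLR, a lipoprotein receptor, was higher by 0.79. In the Dharmacon 1 pair ELOVL7 and SCD5, an elongase and a desaturase, were higher by 0.72 and 0.73. None of these was past 1.5-fold in the Dharmacon 2 pair. SCD5 was dim, at 4.72 on the Dharmacon 1 control and 5.45 with BRD1 siRNA. VLDLR, at 5.06 on the Qiagen control, and NR1H3, at 5.29 with Qiagen BRD1 siRNA, were also under the median of all values there. Of 9 genes of fatty acid oxidation, 0 passed in BRD1-L cells against untreated cells and 0 in any pair. Between the lines 1 of 9 was lower in BRD1-L than in BRD1-S cells, against 1.36% of all genes. This was ACADL, a long-chain acyl-CoA dehydrogenase, by 0.62. It was dim, at 3.86 in untreated, 4.37 with BRD1-S and 3.75 with BRD1-L, so BRD1-S stood apart rather than BRD1-L.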

How the data were processed

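RNA was read on 9 Affymetrix U219 arrays. The deposited values are log2 intensities of 49386 probe sets. For its fold changes the paper describes intensities scaled to the mean of each array, but does not say that the deposited values were made this way. Summarisation and background correction are not given in the sources used here. Array medians lay between 5.41 and 5.53. No detection calls were used, so precision was judged from level and from the 3 control arrays, whose small number limits it. Probe sets with 1 symbol (45259) were averaged per gene; 1327 with several symbols and 2800 without were left out. Symbols came from GEO's platform annotation, and the Entrez IDs of all 32 genes matched RefSeq's symbols.

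Single arrays were compared by log2 differences, called past 1.5-fold with no test. The 6 siRNA arrays were fitted over all genes (limma 3.58.1, R 4.3.3) on the kit and the siRNA, and p-values were adjusted by the Benjamini-Hochberg method; the step was tested on simulated data. Same-numbered siRNA and control arrays deviated together, at correlations of 0.333, 0.224 and 0.333 across genes, so a second fit held the pairs as a block. Between pairs the correlations were negative, except 0.215 for the Dharmacon 1 siRNA array with the Qiagen control, close to that with its own control. Arrays were also centred, quantile normalized, filtered by level, set against other controls, and left out in turn. Motifs were searched with Python 3.11.15, using numpy 2.4.6 and pandas 2.3.3. Values on every array are given for the 4 regulators and for genes past 1.5-fold in any of 6 comparisons, and from each further list the 4 genes with the largest difference could be named; ABCG1 and GPAM were singled out from these for values on every array after those values were seen. The genes and lists were chosen with earlier results of these data known. Chromatin binding and protein data of the study were not used here.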

Additional observations from a re-analysis of the deposited data

How the results depend on the processing

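Medians below are log2 differences. With each array centred on its median, the sterol and fatty acid medians of BRD1-L against untreated cells were -0.19 and -0.30. The median of all genes was then -0.068. The sterol median of BRD1-S was -0.071, beside -0.044 for all genes. The medians of the Dharmacon 1 pair were 0.075 and 0.15, beside -0.064 for all genes. Those of the Dharmacon 2 pair were 0.11 and -0.011, beside 0.062. Centring thus moved all genes along with the branches. TM7SF2 then passed 1.5-fold neither in the Dharmacon 1 pair nor between BRD1-L and BRD1-S, leaving 0 higher in each. With the brightest probe set of each gene, the medians for BRD1-L were -0.065 and -0.13 against untreated cells and -0.11 and -0.18 against BRD1-S. They were 0.23 and 0.29 in the Qiagen pair, and 0.31 for fatty acid enzymes in the Dharmacon 1 pair. The counts were 2 lower in BRD1-L against BRD1-S, 4 higher in the Qiagen and 2 higher in the Dharmacon 1 pair. The share of all genes was not counted with the brightest probe set or with centred arrays, so these counts have no background. When any probe set past 1.5-fold sufficed, 8 of 32 genes were lower in BRD1-L against untreated cells, against 4.22% of all genes. Lower against BRD1-S were 5 of 32, against 3.4%. Higher were 6 of 32 in the Qiagen pair, against 6.89%, and 2 of 32 in the Dharmacon 1 pair, against 6.79%. At 2-fold, 1 of 32 (APOE) was higher in BRD1-L against untreated cells, against 0.79% of all genes, and 0 lower, against 0.258%. Set against BRD1-S, 0 were higher, against 0.28%, and 0 lower, against 0.302%. In the Qiagen and Dharmacon 1 pairs 0 were higher, against 0.367% and 0.433%.

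With the mean of the 3 control siRNA arrays as control, the sterol median was 0.16 for BRD1-S and -0.0092 for BRD1-L. INSIG1 was then 1 gene lower in BRD1-S cells (-0.69), and among the 5 lower in BRD1-L cells DHCR7 (-0.59) and SCD (-0.71) took the place of HMGCS1 and LSS. With the Dharmacon 2 control as control, an alternative chosen after seeing the data, the fatty acid medians were -0.071 and -0.43 for BRD1-S and BRD1-L, 0 genes were higher in BRD1-S and 1 (APOE) in BRD1-L cells, and the 4 lower in BRD1-L cells were INSIG1, DHCR7, FASN and ELOVL6. The cause of these shifts was not tested. The share of all genes past 1.5-fold was not counted against either substitute control, so these counts have no background of genes beside them. By probe set, 1.66% of all differed past 1.5-fold in either direction between BRD1-S and the Dharmacon 2 control. Between BRD1-L and that control it was 4.96%.

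Leaving out each of the 6 siRNA arrays in turn, limma called between 0 and 33 genes, the 33 without the Dharmacon 2 control; the limma medians lay between 0.08 and 0.14 for sterol and between 0.05 and 0.14 for fatty acid enzymes. The fit with the pairs as a replicate block called 0 genes, with 1471 at an unadjusted p under 0.05, and changed no call; nor did an intensity trend, all 9 arrays in the fit, single probe sets, dim genes left out or the Dharmacon arrays alone, each with 0 calls. Low signal limits STARD4, SREBF1, APOE, ABCG1, ACADL, SCD5, VLDLR and NR1H3.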
